A study of Danio rerio with 12 samples.

Results

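The genes described here are those of the farnesoid X receptor (FXR) axis and of bile acid transport in whole zebrafish larvae exposed to tributyltin chloride (TBT). They were chosen by name: 10 symbols were looked up among the gene names of the deposited tables, and 9 of them were found among the 26816 genes listed. These 9 are nr1h4, nr0b2a, nr0b2b, cyp7a1, cyp8b1, abcb11a, abcb11b, slc51a and fabp6, and slc51b was not analysed here. The symbols were chosen with earlier results of these data known. All 9 passed the filter on low values, which kept the 22404 genes that reached 10 in 3 or more libraries. nr0b2b passed it only through the libraries of the 30 and 100 nM groups.

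The study compared wild-type larvae at 5 days post fertilization (dpf) that had been in water with TBT from 2 dpf onward. TBT, once used in antifouling paints, is an organotin compound and a ligand of PPARγ and of RXR, the retinoid X receptors. The 4 groups were the solvent control and larvae at 3, 30 and 100 nM TBT, all of them with 0.2% v/v dimethyl sulfoxide in the water, with 3 libraries a group and 10 pooled larvae a library. RNA was sequenced after poly(A) selection at an average of 42000000 read pairs a library, and the sums of the normalised counts lay between 26515823 and 35772586. The labels do not say whether replicate pools were exposed separately or taken from different clutches. The p-values thus set each difference only against the scatter of these pools, and that scatter may be technical. Because whole larvae were used, fewer or more cells of a type and less or more RNA per cell cannot be told apart.

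FXR, encoded by nr1h4, is a nuclear receptor that binds bile acids and acts on DNA with RXR as its partner. In the mammalian liver it raises the small heterodimer partner SHP, a repressor that lowers Cyp7a1, the rate-limiting enzyme of bile acid synthesis, and it raises the pump that exports bile salts into bile. In the mammalian ileum, FXR raises the bile acid binding protein Fabp6 and the basolateral exporter made of Slc51a and Slc51b. Zebrafish make mainly a bile alcohol, and the roles given here for single genes are known chiefly from mammals.

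At 100 nM TBT, 5 of the 9 genes rose and 0 fell relative to the control, at an adjusted p under 0.05 (limma on log2(value + 1), Benjamini-Hochberg over all 22404 genes). The 5 were both SHP genes, nr0b2a and nr0b2b, the bile salt pump gene abcb11b, slc51a and fabp6. Of all genes tested, 9.63% rose and 7.9% fell in this comparison. The median log2 fold change of the 9 genes was 1.28, against -0.02 over all genes. The 9 genes were chosen with earlier results of these data known, so these numbers describe the set and do not test it. The receptor gene nr1h4 and the synthesis genes cyp7a1 and cyp8b1 did not pass the test, and neither did abcb11a. With the replicate number as a block, cyp8b1 passed as lower (adjusted p = 0.0371, limma) and abcb11a as higher (adjusted p = 2.91e-04, limma). That model called 34.3% of all genes, and the labels do not say what the replicate numbers mark. With only the libraries of the groups compared in the model, 2 of the 9 passed, nr0b2b and slc51a, where 1172 of 21900 genes passed. In the model of all 12 libraries without covariates, only nr0b2b passed at 30 nM and none did at 3 nM. nr0b2b met the filter on low values only through the 30 and 100 nM groups.

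**Figure D1:**
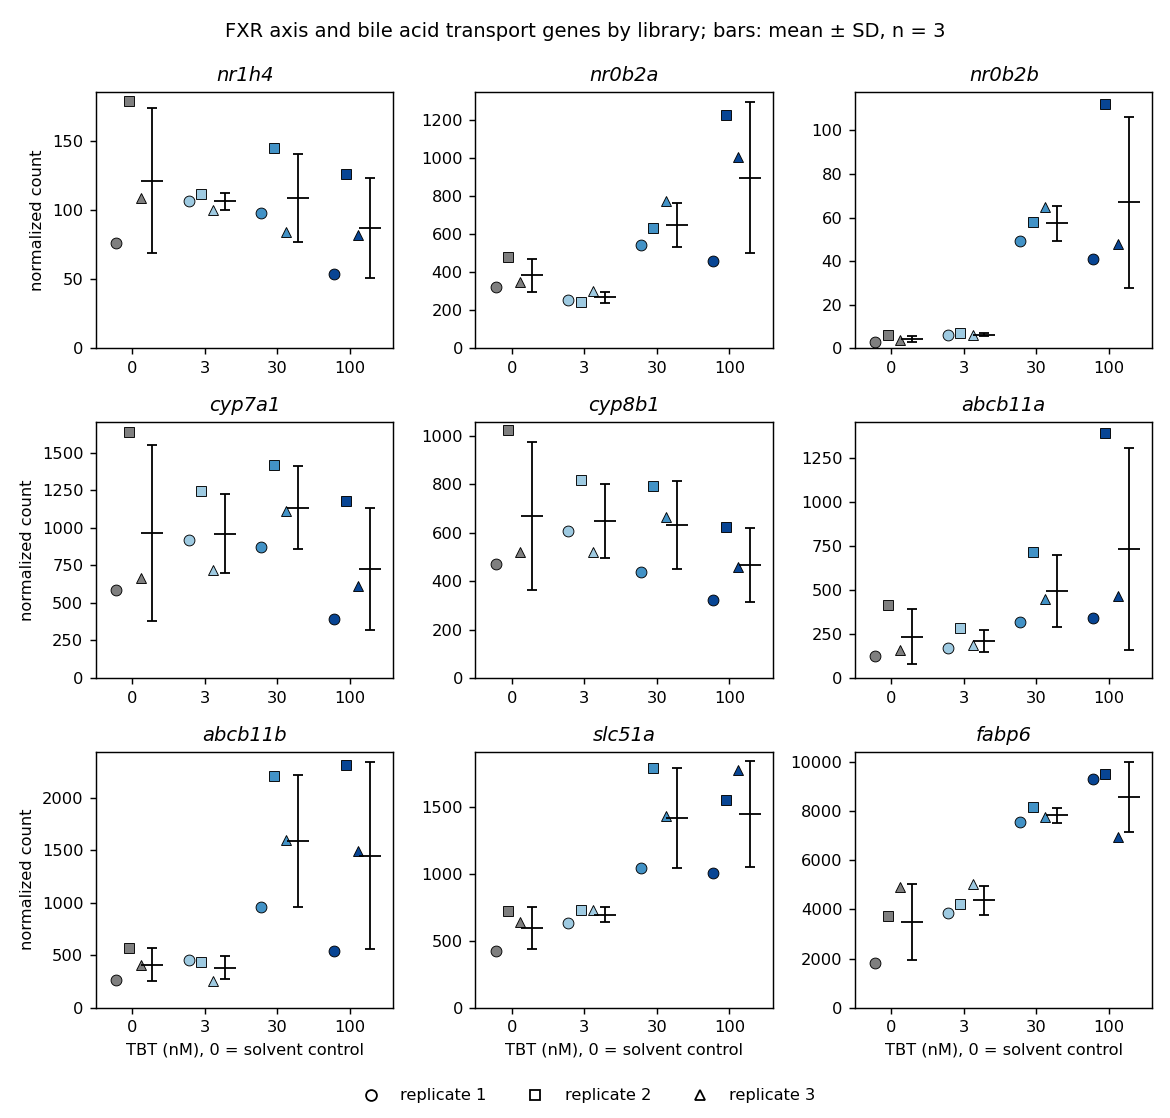
Normalised counts of the 9 genes (vertical axes, each from 0) by TBT concentration in nM (horizontal axes, 0 is the solvent control), with 1 symbol a library, symbol shape for the replicate number and bars for the mean ± SD of 3 libraries. nr0b2b lies between 3 and 7 in the control and 3 nM libraries and between 41 and 112 in the 30 and 100 nM libraries, while the groups overlap for nr1h4, cyp7a1 and cyp8b1.

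nr1h4, the receptor gene of the pathway (ENSDARG00000057741) had 76, 179 and 109 normalised counts in the control libraries, 107, 112 and 100 at 3 nM, 98, 145 and 84 at 30 nM, and 54, 126 and 82 at 100 nM. The groups overlapped throughout, and control replicate 2 was the highest of the 12 libraries. Replicate 2 was also the highest within each of the 4 groups. The log2 fold change was -0.46 ± 0.35 (SE) at 100 nM relative to the control, with an adjusted p of 0.395 in limma and a 95% interval of -1.23 to 0.30. That interval leaves room for a fall of more than a log2 unit.

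nr0b2a and nr0b2b are the zebrafish genes for SHP, an orphan receptor that lacks a DNA-binding domain and represses other nuclear receptors. nr0b2b (ENSDARG00000102756) had 3, 6 and 4 normalised counts in the control libraries, 6, 7 and 6 at 3 nM, 49, 58 and 65 at 30 nM, and 41, 112 and 48 at 100 nM. Every library at 30 and 100 nM was above every library at 3 nM and in the control, and 100 nM replicate 2 was the highest. The mean was 67 ± 39.1 at 100 nM and 57.3 ± 8.02 at 30 nM, against 4.33 ± 1.53 in the control (SD, n = 3 each). The rise was 3.57 ± 0.36 (log2, SE, adjusted p = 1.20e-04, limma) at 100 nM and 3.48 ± 0.36 (adjusted p = 0.00195, limma) at 30 nM. The gene met the filter on low values only through the 30 and 100 nM libraries, so these tests are not independent of that filter. The low control values make these fold changes depend on the pseudocount of 1, which brings them toward 0.

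nr0b2a (ENSDARG00000044685) had 321, 481 and 346 normalised counts in the control libraries, 256, 244 and 302 at 3 nM, 540, 630 and 772 at 30 nM, and 456, 1226 and 1004 at 100 nM. All 3 libraries at 30 nM lay above the control range, whereas 100 nM replicate 1 lay inside it. The gene rose at 100 nM, by 1.13 ± 0.31 (log2, SE; adjusted p = 0.0279, limma). This call is lost without control replicate 1, control replicate 3, 100 nM replicate 2 or 100 nM replicate 3, each left out alone, with an adjusted p of up to 0.0982. At 30 nM the log2 fold change was 0.76, with an adjusted p of 0.442 in limma. At 3 nM all 3 libraries lay below the control range, with a log2 fold change of -0.50 and an adjusted p of 0.537 in limma. The share of all genes lying wholly below the control at 3 nM was not computed.

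The synthesis genes cyp7a1 and cyp8b1 encode the cholesterol 7α-hydroxylase that opens the classical pathway and the sterol 12α-hydroxylase that sets which bile acid or alcohol is made. cyp7a1 (ENSDARG00000069018) had 589, 1639 and 667 normalised counts in the control libraries, 917, 1244 and 722 at 3 nM, 869, 1418 and 1113 at 30 nM, and 391, 1179 and 611 at 100 nM. Replicate 2 was the highest library in each of the 4 groups, and the groups overlapped. The same order, with replicate 2 highest in all 4 groups, was seen for nr1h4, cyp8b1 and abcb11a. The log2 fold change at 100 nM was -0.40 ± 0.44 (SE) relative to the control (adjusted p = 0.579, limma), with a 95% interval of -1.36 to 0.56. Without control replicate 2 it was 0.06. Relative to 30 nM it was -0.76 ± 0.44 (adjusted p = 0.351, limma).

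cyp8b1 (ENSDARG00000053068) had 469, 1021 and 519 normalised counts in the control libraries, 606, 817 and 520 at 3 nM, 436, 792 and 665 at 30 nM, and 321, 623 and 456 at 100 nM. Its highest library was control replicate 2 and its lowest was 100 nM replicate 1. The log2 fold change at 100 nM was -0.48 ± 0.34 (SE; adjusted p = 0.363, limma), with a 95% interval of -1.22 to 0.26. Zebrafish carry close relatives of cyp8b1 that may share reads with it, so its level is uncertain to that extent.

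abcb11a and abcb11b are the zebrafish genes for the bile salt export pump of the hepatocyte's canalicular membrane. abcb11b (ENSDARG00000070078) had 260, 571 and 403 normalised counts in the control libraries, 450, 440 and 258 at 3 nM, 960, 2211 and 1600 at 30 nM, and 539, 2317 and 1494 at 100 nM. Every 30 nM library was above the control range, whereas 100 nM replicate 1 was inside it. The gene rose at 100 nM, by 1.65 ± 0.50 (log2, SE; adjusted p = 0.0426, limma). At 30 nM the log2 fold change was 1.94 ± 0.50, with an adjusted p of 0.160 in limma. The call at 100 nM is lost without control replicate 1, control replicate 3, 100 nM replicate 2 or 100 nM replicate 3, each left out alone, with an adjusted p of up to 0.125.

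abcb11a (ENSDARG00000011573) had 127, 413 and 161 normalised counts in the control libraries, 168, 284 and 186 at 3 nM, 317, 716 and 449 at 30 nM, and 340, 1390 and 466 at 100 nM. Control replicate 2 stood inside the range of both higher groups, so the groups overlapped. Within each of the 4 groups replicate 2 was the highest and replicate 1 the lowest. The log2 fold change at 100 nM was 1.56 ± 0.55 (SE) with an adjusted p of 0.0724 in limma, and the test was passed without control replicate 2 (adjusted p = 0.0221) or without 100 nM replicate 1 (adjusted p = 0.0491). The pump genes are related in sequence and may share reads.

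slc51a encodes a subunit of the organic solute transporter, which carries bile acids across the basolateral membrane. slc51a (ENSDARG00000045306) had 424, 724 and 639 normalised counts in the control libraries, 632, 728 and 731 at 3 nM, 1043, 1793 and 1433 at 30 nM, and 1010, 1557 and 1783 at 100 nM. All 6 libraries at 30 and 100 nM lay above all 6 at 3 nM and in the control. The mean was 1450 ± 397 at 100 nM and 1423 ± 375 at 30 nM, against 596 ± 155 in the control (SD, n = 3 each). The rise at 100 nM was 1.28 ± 0.26 (log2, SE; adjusted p = 0.0062, limma), and it passed the test without each of the 6 libraries in turn. At 30 nM the log2 fold change was 1.26 ± 0.26, with an adjusted p of 0.0631 in limma, or 0.0376 without control replicate 2.

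fabp6 encodes the ileal bile acid binding protein of the enterocyte cytosol. fabp6 (ENSDARG00000044566) had 1839, 3741 and 4908 normalised counts in the control libraries, 3864, 4239 and 5023 at 3 nM, 7553, 8174 and 7777 at 30 nM, and 9323, 9512 and 6939 at 100 nM. All libraries at 30 and 100 nM were above the others, and control replicate 1 was the lowest. The mean was 8591 ± 1434 at 100 nM and 7835 ± 314 at 30 nM, against 3496 ± 1549 in the control (SD, n = 3 each). The rise at 100 nM was 1.4 ± 0.29 (log2, SE; adjusted p = 0.00685, limma). At 30 nM the log2 fold change was 1.28 ± 0.29, with an adjusted p of 0.0919 in limma.

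**Figure D2:**
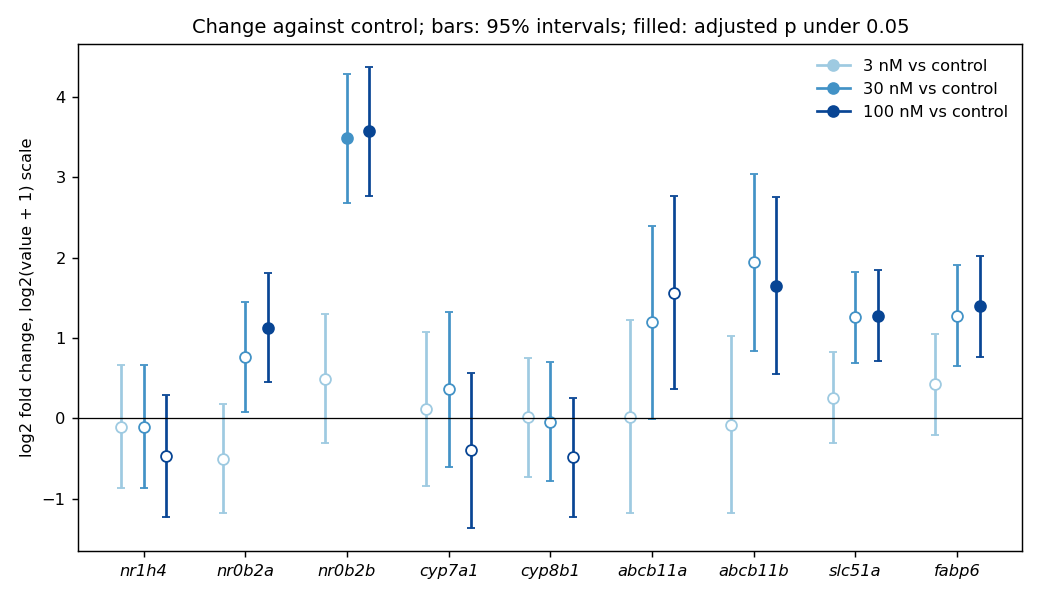
Log2 fold change against the control on the log2(value + 1) scale (vertical axis) for each of the 9 genes (horizontal axis) at 3, 30 and 100 nM TBT, with 95% intervals from limma and filled symbols for an adjusted p under 0.05. nr0b2b is filled at 30 and 100 nM, nr0b2a, abcb11b, slc51a and fabp6 are filled at 100 nM, and the intervals of nr1h4, cyp7a1 and cyp8b1 include 0 at each concentration.

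For the 5 genes that rose at 100 nM, the log2 fold changes at 30 nM lay between 0.76 for nr0b2a and 3.48 for nr0b2b. In 30 nM against the control 1 of the 9 genes rose and 0 fell, where 0.379% of all genes rose and 0.152% fell. The 3 libraries at 30 nM lay wholly above the control for 5 of the 9 genes (nr0b2a, nr0b2b, abcb11b, slc51a and fabp6), against 6.98% of all genes. In 100 nM against the control the corresponding numbers were 3 of the 9 genes (nr0b2b, slc51a and fabp6) and 14.5% of all genes. These comparisons share the control libraries, so they are not independent of each other. The 1 gene called at 30 nM was nr0b2b, which met the filter on low values only through the 30 and 100 nM groups. The 9 genes were chosen with earlier results of these data known, so these counts describe the set and do not test it.

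Between neighbouring concentrations, nr0b2b rose at 30 nM relative to 3 nM, by 2.99 ± 0.36 (log2, SE; adjusted p = 0.0106, limma), and it was the only one of the 9 to pass, with 0 lower. Of all genes, 0.0893% rose and 0.0446% fell in this comparison. nr0b2b met the filter on low values only through the 30 and 100 nM groups. The call rests on all libraries together: with any 1 of the 6 left out, the adjusted p lay between 0.0507 and 0.0976. Relative to 3 nM, for 6 of the 9 genes (nr0b2a, nr0b2b, abcb11a, abcb11b, slc51a and fabp6) the 30 nM libraries lay wholly above those at 3 nM, against 6.49% of all genes. Their log2 fold changes ran between 0.85 for fabp6 and 2.99 for nr0b2b. The count of 6 likewise describes a set chosen with earlier results known and does not test it.

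At 3 nM relative to the control, 0 of the 9 genes passed the test in limma, where 0.0402% of all genes passed. An unadjusted p under 0.05 was reached by 0 of the 9 and by 2385 of all 22404 genes. The 9 log2 fold changes lay between -0.50 for nr0b2a and 0.50 for nr0b2b. At 100 nM relative to 30 nM, 0 of the 9 passed, where 9.23% of all genes passed. An unadjusted p under 0.05 was reached by 0 of the 9 and by 5073 of all 22404 genes. Here the values lay between -0.76 for cyp7a1 and 0.37 for abcb11a, and the 95% interval for slc51a, the narrowest of them, was -0.54 to 0.59. The tests of both comparisons thus called none of the 9 genes.

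The 9 profiles over the 12 libraries fell into different shapes. After each gene's mean log2 value was subtracted, the root mean square difference between cyp7a1 and cyp8b1 was 0.23, that between nr1h4 and cyp8b1 was 0.23, and that between nr1h4 and cyp7a1 was 0.29. slc51a and fabp6 differed by 0.35, slc51a and nr0b2a by 0.39, and abcb11a and abcb11b by 0.49. The SHP genes differed from each other by 1.13, and nr0b2b was the farthest from the rest, up to 1.81 from cyp8b1. Size counts in this measure, so genes that change little lie close to each other.

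**Figure D3:**
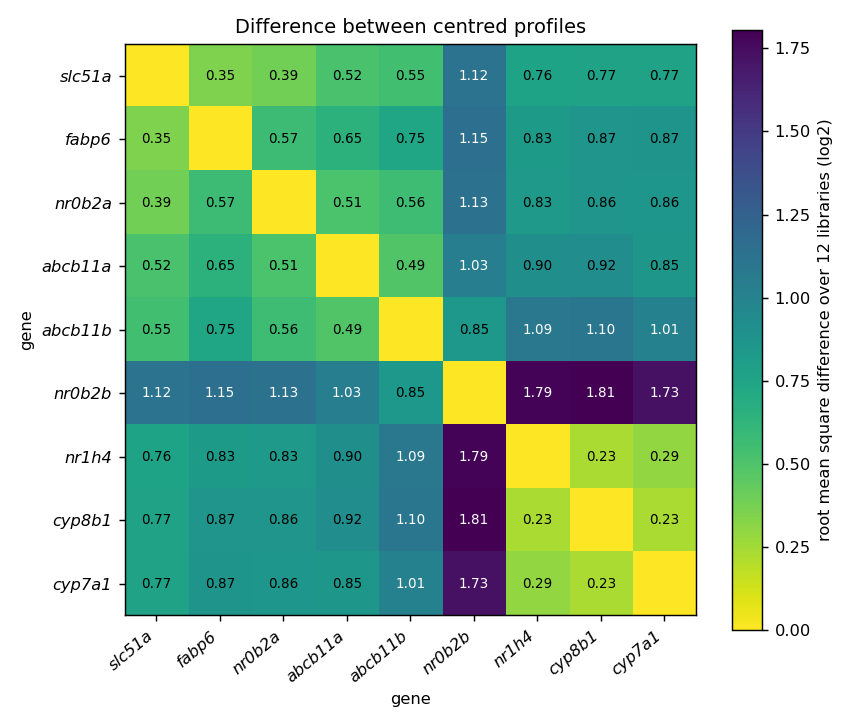
Root mean square difference between the centred log2 profiles of each pair of the 9 genes over 12 libraries (rows and columns are genes, colour and printed values give the difference in log2 units). nr1h4, cyp7a1 and cyp8b1 lie within 0.29 of each other, and nr0b2b lies 0.85 or more from each other gene.

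By the same measure, the named genes most like each of the 9 were looked up among 17159 candidates. Among the 3 nearest to slc51a were cetp (0.18) and the hepatocyte gene fabp10a (0.20). nr0b2a lay closest to c4 (0.26), vtna (0.27) and hal (0.28). nr0b2b had more distant neighbours, opn1lw1 (0.38), soat2 (0.44) and sult3st4 (0.45), and so had abcb11b, with abcc12 (0.36), rbp2b (0.40) and C2 (0.44). abcb11a was nearest to stc2b (0.27), TM6SF2 (0.28) and ugdh (0.31), and fabp6 to cldn15b, sned1 and plp1b, at 0.26, 0.26 and 0.27. The 3 nearest to nr1h4 included hnf4a (0.14) and myo15aa (0.15). For cyp7a1 they were hnf4g (0.18), hbl3 (0.19) and naalad2 (0.19), and for cyp8b1 slc7a7 (0.11), synpo2lb (0.12) and acaa1 (0.13). These lists depend on single libraries: without control replicate 1 the 3 nearest to fabp6 were all other genes, and so were those of nr1h4 without 30 nM replicate 3. The libraries are of whole larvae and share their mix of tissues, and these distances carry no test.

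The rest of the pathway was described through 4 further lists. In the list of bile acid synthesis, 22 genes were tested, of which 5 rose and 2 fell at 100 nM, where 9.63% of all genes rose and 7.9% fell. The median log2 fold change of the list was 0.12, against -0.02 over all genes. cyp39a1, an oxysterol 7α-hydroxylase, had 45.7 ± 6.51 normalised counts at 100 nM and 17.3 ± 2.89 in the control (SD, n = 3 each), a rise of 1.35 on the log2 scale (adjusted p = 0.002, limma). cyp46a1.2, related to cholesterol 24-hydroxylase, rose by 0.72 (adjusted p = 0.0131, limma), and cyp7b1, another oxysterol 7α-hydroxylase, rose by 0.38 (adjusted p = 0.0153, limma). hsd17b4, the peroxisomal enzyme that shortens the side chain, had 632 ± 186 at 100 nM and 1144 ± 222 in the control, and fell by 0.88 (adjusted p = 0.0154, limma). Single libraries decided some of these calls: cyp46a1.2 did not pass without control replicate 3 (adjusted p = 0.0613, limma), cyp7b1 without control replicate 3 or 100 nM replicate 3 (up to 0.0603), and hsd17b4 without 100 nM replicate 1 or 3 (up to 0.0593). The count for the list was 3 without control replicate 3 or without 100 nM replicate 3.

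The scaling matters for some of these calls. With each library scaled to the same total, the median of all genes at 100 nM moved to -0.21. The synthesis list then had 1 gene higher and 3 lower, where 3996 of 22326 genes passed, 1127 of them higher. In it cyp39a1 was still called (adjusted p = 0.00787, limma), and cyp46a1.2 (0.112) and cyp7b1 (0.244) were not. Under that scaling nr0b2b, slc51a and fabp6 kept their calls at 100 nM, whereas nr0b2a (adjusted p = 0.0965) and abcb11b (adjusted p = 0.0972) did not pass in limma.

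Among other bile acid and biliary lipid transporters, 14 genes were tested, of which 3 rose and 0 fell at 100 nM, with a median of 0.43. Over all genes 9.63% rose and 7.9% fell. slco2b1, an organic anion uptake carrier, had 1383 ± 188 normalised counts at 100 nM and 925 ± 44.3 in the control, a rise of 0.57 (log2; adjusted p = 0.00342, limma). tjp2b, a tight junction gene, rose by 0.42 (adjusted p = 0.00918, limma), and abcg8, a subunit of the sterol exporter into bile, by 1.29 (adjusted p = 0.0295, limma). With equal totals only slco2b1 passed (adjusted p = 0.0166, limma), where 3996 of 22326 genes passed, 1127 of them higher. The abcg8 call did not hold without control replicate 1 or 3, or without 100 nM replicate 2 or 3 (adjusted p up to 0.0854, limma). abcg8 also rose at 30 nM, by 1.94 (adjusted p = 0.0417, limma, or 0.121 with equal totals), the only gene of the 4 lists called there.

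The bile acid uptake genes were named after their values had been seen. slc10a1, the hepatocyte sodium-dependent carrier, had 56 ± 9.54 normalised counts at 100 nM and 38 ± 10.6 in the control, a log2 fold change of 0.57 (adjusted p = 0.152, limma). slc10a2, the ileal carrier, had 371 ± 105 at 100 nM and 283 ± 110 in the control, a log2 fold change of 0.44 (adjusted p = 0.340, limma). abcg5, the partner of abcg8, had 614 ± 375 at 100 nM and 262 ± 174 in the control (log2 fold change 1.28, adjusted p = 0.0834, limma).

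Of the FXR partners and bile acid sensors, 19 were tested, of which 1 rose and 1 fell at 100 nM, with a median of -0.08. These counts lie near the shares over all genes, 9.63% higher and 7.9% lower. The RXR gene rxraa had 572 ± 34.2 normalised counts at 100 nM and 743 ± 21.5 in the control, and fell by 0.38 on the log2 scale (adjusted p = 0.0078, limma). rxrgb had 475 ± 39.1 at 100 nM and 361 ± 37 in the control, a rise of 0.40 (adjusted p = 0.0392, limma) that was not called with equal totals (0.168), nor without control replicate 2 or 3 or 100 nM replicate 1 or 3 (up to 0.135). The second FXR gene nr1h5, chosen after its values had been seen, had 77.3 ± 24.5 at 100 nM and 67.7 ± 8.08 in the control (log2 fold change 0.14, adjusted p = 0.741, limma, and -0.04 with equal totals).

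Of the genes known from mammals as further FXR targets, 24 were tested, of which 6 rose and 1 fell at 100 nM, with a median of 0.45. The shares over all genes were 9.63% higher and 7.9% lower. With equal totals 2 were higher and 3 lower, where 3996 of 22326 genes passed, 1127 of them higher. On the deposited values the number called was 4 without control replicate 3 or without 100 nM replicate 3. pltp, the phospholipid transfer protein, had 2325 ± 693 normalised counts at 100 nM and 470 ± 119 in the control, a rise of 2.29 (log2; adjusted p = 1.15e-04, limma). scarb1, the lipoprotein receptor SR-BI, had 371 ± 26.5 at 100 nM and 1378 ± 612 in the control, and fell by 1.81 (adjusted p = 4.59e-04, limma). insig2, a brake on cholesterol synthesis, rose by 0.51 (adjusted p = 0.0100, limma) and the fibrinogen gene fgg by 0.76 (adjusted p = 0.0102, limma), and neither passed with equal totals (0.106 and 0.0837). fgf19, the intestinal signal to the liver, chosen after its values had been seen, had 15.7 ± 5.51 at 100 nM and 28.3 ± 5.69 in the control (log2 fold change -0.85, adjusted p = 0.0768, limma, or 0.0401 with equal totals).

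Hepatocyte markers moved as well. The gut marker sums given below overlapped the control at 100 nM, although the median log2 fold change of the enterocyte list was -0.73 there. The summed hepatocyte markers lay between 207317 and 249567 normalised counts at 100 nM and between 196322 and 236469 at 30 nM, against 139367 to 157970 in the control, with no overlap and 0 markers at 0. The sum at 3 nM, between 163994 and 178577, was also wholly above the control. However, 0 of the 14 hepatocyte markers passed in limma at 3 nM, with a median log2 fold change of 0.18. The share of all genes lying wholly above the control at 3 nM was not computed. Of 14 hepatocyte markers tested, 5 rose and 0 fell at 100 nM and 3 rose and 0 fell at 30 nM, with medians of 0.66 and 0.62. Over all genes 9.63% rose and 7.9% fell at 100 nM, and 0.379% rose and 0.152% fell at 30 nM. With equal totals 4 were higher at 100 nM, where 1127 of 22326 genes were, and 0 at 30 nM, where 31 were. On the deposited values without 100 nM replicate 1 the number at 100 nM was 8. rbp4, chosen after its values had been seen and also expressed outside the liver, made up 39.1% of the sum. At 100 nM the log2 fold changes of the 14 ran between -0.83 for cp (adjusted p = 0.325, limma), the only one below 0, and 3.34 for hpx (adjusted p = 0.00124, limma), both named after their values had been seen.

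fabp10a, the liver fatty acid binding protein and a defining hepatocyte marker in zebrafish, had 6376, 10096 and 9317 normalised counts in the control libraries, 12691, 13337 and 12205 at 3 nM, 19917, 26472 and 24007 at 30 nM, and 17092, 25851 and 21641 at 100 nM. Each exposed library was above the control range. At 3 nM the log2 fold change of fabp10a was 0.59, with an adjusted p of 0.399 in limma. It rose by 1.33 (log2; adjusted p = 0.00106, limma) at 100 nM and by 1.47 (adjusted p = 0.00827, limma, or 0.0543 with equal totals) at 30 nM.

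Set against fabp10a in the same library, a description added after the data had been seen, the 9 genes differed. Per 1000 of fabp10a, slc51a had 67.2 ± 13.1 at 100 nM and 59.9 ± 7.69 at 30 nM, against 68.9 ± 2.62 in the control (SD, n = 3 each). Its ratio at 100 nM overlapped that of the control. Because fabp10a was among the 3 nearest profiles to slc51a in these libraries, this ratio restates that closeness and is no separate result. nr0b2b had 2.98 ± 1.17 at 100 nM and 2.45 ± 0.26 at 30 nM, against 0.498 ± 0.086 in the control, with no overlap. abcb11b had 63.4 ± 29.5 at 100 nM and 66.1 ± 17.7 at 30 nM, against 46.9 ± 8.49 in the control, and the groups overlapped.

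nr0b2a had 40.2 ± 11.7 per 1000 of fabp10a at 100 nM, against 45.0 ± 6.98 in the control. At 30 nM its ratio, 23.8 to 32.2, lay wholly below the control range of 37.1 to 50.3. fabp6 had 411 ± 119 at 100 nM and 337 ± 37.1 at 30 nM, against 395 ± 121 in the control, and the groups overlapped. abcb11a had 19.9 to 53.8 at 100 nM against 17.3 to 40.9 in the control, which overlap. The receptor and synthesis genes had lower ratios: cyp8b1 had 18.8 to 24.1 at 100 nM against 55.7 to 101 in the control, cyp7a1 22.9 to 45.6 against 71.6 to 162, and nr1h4 3.16 to 4.87 against 11.7 to 17.7, none of them overlapping. The ratio falls with any rise of fabp10a itself, so it shows unequal change and not which gene moved. Shares over all genes were not computed for the ratios given here, so no gap can be called particular to these genes.

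The ratio to the whole hepatocyte marker sum is a further description of this kind. Per 100000 of that sum, nr0b2b had 19.2 to 51.5 at 100 nM and 25.0 to 27.5 at 30 nM, against 1.90 to 4.31 in the control. abcb11b had 489 to 1024 at 30 nM, against 165 to 410 in the control, and slc51a 531 to 830 against 268 to 519, with no overlap at 30 nM for either. At 100 nM, with 260 to 1066 for abcb11b and 487 to 716 for slc51a, both overlapped the control. nr0b2a averaged 395 ± 172 per 100000 of the sum at 100 nM, against 264 ± 73.0 in the control (SD, n = 3 each), so its mean was higher on this scale and lower relative to fabp10a.

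The separation of the receptor and synthesis genes also depended on the scale. Per 100000 of the sum, cyp7a1 had 189 to 543 at 100 nM against 373 to 1176 in the control, and nr1h4 26.0 to 58.0 against 48.1 to 128, both overlapping. cyp8b1 had 155 to 287 at 100 nM against 297 to 733 in the control, with no overlap on this scale either. The marker sum itself was higher at 100 nM, so the ratio of a gene that does not change falls. In normalised counts cyp8b1 overlapped the control, with 321 to 623 against 469 to 1021 (adjusted p = 0.363, limma). Shares of all genes without overlap were not computed for the ratios to the sum either.

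**Figure D4:**
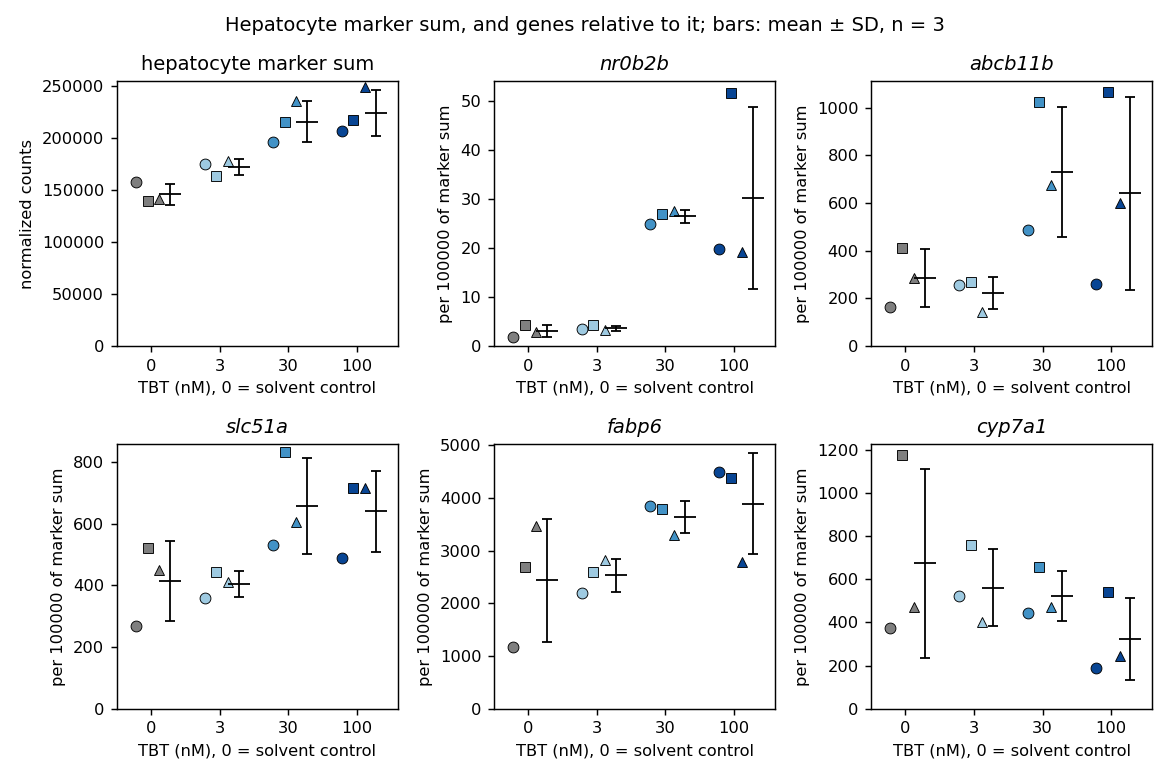
The summed hepatocyte markers in normalised counts (first panel) and 5 genes per 100000 of that sum (other panels), by TBT concentration in nM (horizontal axes, 0 is the solvent control), with 1 symbol a library, symbol shape for the replicate number as in the plot of the 9 genes (circle 1, square 2, triangle 3), and bars for the mean ± SD of 3 libraries. The marker sum is higher at 3, 30 and 100 nM than in the control, and the nr0b2b ratio is separate from the control at 30 and 100 nM.

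For fabp6, an intestinal gene, the gut markers are the nearer comparison. The enterocyte marker sum lay between 52991 and 91095 at 100 nM, against 64830 to 129124 in the control, and 1 of its 17 tested genes rose and 3 fell (0 and 4 with equal totals). The median log2 fold change of that list was -0.73 at 100 nM and 0.04 at 30 nM. The sum for lysosome-rich enterocytes, the absorptive cells of the posterior gut, lay between 15502 and 17268 at 100 nM, against 16356 to 19650 in the control, with 1 of 9 higher and 0 lower (0 and 2 with equal totals). Beside both gut lists, 9.63% of all genes rose and 7.9% fell at 100 nM. With equal totals 3996 of 22326 genes passed, 1127 of them higher. Leaving out 1 library moved the number called to between 2 and 7 for enterocytes and between 0 and 4 for lysosome-rich enterocytes, both highest without control replicate 1. Neither gut sum was wholly above the control at 30 or 100 nM. The control range of the enterocyte sum was wide, and whether gut tissue has a part in the change of fabp6 was not tested.

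Among the other marker lists at 100 nM, 3 of 10 cholangiocyte genes rose and 1 fell (2 called without control replicate 3, 100 nM replicate 1 or 100 nM replicate 3), with a sum between 81067 and 111734 at 100 nM and between 54945 and 79073 in the control. Over all genes 9.63% rose and 7.9% fell at 100 nM. Of 12 kidney tubule genes 0 passed in limma (2 passed without control replicate 1 or without control replicate 2). An unadjusted p under 0.05 was reached by 1 of the 12 and by 7013 of all 22404 genes. Of 16 exocrine pancreas genes 0 rose and 8 fell, with 2 called without control replicate 3 and 5 without control replicate 2 or 100 nM replicate 3. Whether the amount of liver or gut tissue per larva has a part in the changes of the 9 genes was not tested.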

How the data were processed

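RNA-seq of 12 pools of whole zebrafish larvae was used. The deposited values are a score, per the file headers normalised counts, which the authors gave as whole numbers. The submitters' processing notes list the build GRCz10 and the tools DESeq2 1.10.1, RSEM 1.2.28, STAR 2.5.1b and CASAVA without saying what each did, and no label gives an annotation release. Because the values are not raw counts, a count test was not used, and raw depth per library was not used here. The tables name genes, and all 9 gene identifiers matched the gene name table. No genome of that build was used, so no coordinates or sequences are printed.

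In R 4.3.3, limma 3.58.1 (eBayes with a variance trend, all 12 libraries in 1 model without covariates) was run on log2(value + 1) of the 22404 genes that reached 10 in 3 or more libraries, with Benjamini-Hochberg adjustment and a threshold of 0.05. Fold changes are on that scale and understate changes of low genes. The model was also run on simulated libraries drawn independently, without a replicate effect. That run does not cover the correlation between libraries of the same replicate number, and its outcome is not given here. No 2 libraries were duplicates, and within a group they correlated at r between 0.948 and 0.989.

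The members and lists were chosen with earlier results of these data known. All members were named, with the up to 4 genes of lowest p past the threshold at 100 nM from each pathway list, up to 2 markers a list and the 3 nearest profiles for each member. A few genes that this rule or the marker lists would name are not reported here. The 10 lists held 176 symbols, of which 162 matched. Alternatives were a pseudocount of 5, filters at 50 or without a minimum, equal totals, only the groups compared, a replicate block, no variance trend and each library left out. A planned search for motifs in promoters was not run.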

Additional observations from a re-analysis of the deposited data

How the results depend on the processing

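The number of the 9 genes called at 100 nM against the control was 5. It was 3 with equal totals, where 17.9% of all genes passed. With only the groups compared in the model it was 2, nr0b2b and slc51a, where 1172 of 21900 genes passed. The adjusted p of fabp6 there was 0.0739 in limma. With 1 library left out the number was 3 to 6, where 2289 to 4621 genes passed. At 30 nM against the control (1 called) it was 1 to 2 with 1 library left out, where 28 to 267 genes passed. At 30 nM against 3 nM (1 called) it was 4 with only the groups compared, where 103 of 21956 genes passed. It was 0 there with any library left out. At 100 against 30 nM (0 called) leaving out 1 library gave 0 to 1, where nr0b2a passed without 100 nM replicate 1 (adjusted p = 0.0491, limma). The cause was not tested.

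With equal totals the sign turned for cyp8b1 (-0.076) and abcb11a (-0.070) at 3 nM against the control, nr0b2b (-0.031) and slc51a (-0.097) at 100 against 30 nM, nr1h4 (0.023) at 30 against 3 nM, and nr1h5 (-0.044) at 100 nM. None of these was called. Leaving out 1 library gave log2 fold changes that crossed 0 for cyp7a1 at 100 nM (-0.82 to 0.065) and nr1h5 (-0.011 to 0.44), for nr1h4 (-0.39 to 0.22) and cyp8b1 (-0.25 to 0.31) at 30 nM, and at 3 nM for cyp7a1 (-0.16 to 0.58), cyp8b1 (-0.19 to 0.37), abcb11a (-0.32 to 0.53), nr1h4 (-0.39 to 0.22) and abcb11b (-0.37 to 0.20). The same held at 100 against 30 nM for nr0b2b (-0.35 to 0.36), slc51a (-0.18 to 0.26), abcb11b (-0.74 to 0.31) and abcb11a (-0.23 to 0.78), and at 30 against 3 nM for nr1h4 (-0.23 to 0.17) and cyp8b1 (-0.24 to 0.19). Of 842 recomputed values for single genes, 733 kept direction and side of the threshold.

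Replicate numbers were not used to pair the libraries. Libraries with the same number correlated in their deviations from the group mean at 0.293 to 0.563 for replicate 1, 0.350 to 0.578 for replicate 2 and -0.02 to 0.096 for replicate 3. The highest correlation with another number was at most 0.0495 for replicate 1, 0.0387 for replicate 2 and 0.207 for replicate 3. The deviations of 3 libraries from their mean sum to 0, so the low values of replicate 3 cannot decide what the numbers mark. With the replicate number as a block, 7 of the 9 genes were called at 100 nM, with abcb11a higher (adjusted p = 2.91e-04, limma) and cyp8b1 lower (adjusted p = 0.0371, limma) added to the 5. At 30 nM 5 were called, with abcb11a, abcb11b, slc51a and fabp6 added (adjusted p between 8.33e-04 and 0.0249, limma). At 100 against 30 nM 1 was called, cyp7a1, which was lower (adjusted p = 0.0282, limma), and at 30 against 3 nM 5 were, with nr0b2a, abcb11a, abcb11b and slc51a added (adjusted p between 0.00686 and 0.0455, limma). Of all genes, the block model called 34.3% at 100 nM and 3.47% at 30 nM against the control. It called 20.3% at 100 against 30 nM and 0.576% at 30 against 3 nM.

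Over all genes, 3926 calls at 100 nM against the control (2157 higher) became 1172 with only the groups compared, 7678 with the block and 2289 to 4621 with 1 library left out, and equal totals gave 3996, of which 1127 were higher. At 30 nM 119 calls became 62 with equal totals, 15 with only the groups compared, 778 with the block and 28 to 267 with 1 library left out. At 3 nM 9 calls became 0 with only the groups compared or without the variance trend, 1234 with the block and 0 to 33 with 1 library left out. At 100 against 30 nM 2069 became 1179 with only the groups compared, 4540 with the block and 1041 to 1887 with 1 library left out, and at 30 against 3 nM 30 became 19, 103, 129 and 3 to 14 with equal totals, only the groups compared, the block and 1 library left out.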
